A study of Homo sapiens with 6 samples.

Results

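The autophagy core genes are the 38 genes whose proteins start, build, tag and load the autophagosome, together with the transcription factors TFEB and TFE3. They were taken as a list of gene names, and all 38 were found among the 58735 genes of the table. Their mRNA was measured by RNA-seq in HaCaT cells, human keratinocytes of an immortalised line that stand in for the epidermis in culture. There were 3 libraries from cells irradiated with UVB, labelled 50 mJ with no area, and cultured for 24 h afterwards, and 3 libraries from control cells of the same line. Whether the dishes were independent cultures is not stated, and p-values therefore reflect the spread among these 6 libraries alone, which may be technical.

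In autophagy a cup of membrane grows around cytoplasm, closes and fuses with the lysosome, where its contents are degraded. A kinase complex around ULK1 starts the process, a class III phosphatidylinositol 3-kinase marks the membrane with the lipid PI3P, and lipid carriers feed its growth. Enzymes resembling the ubiquitin system then couple small ATG8 proteins such as LC3 to the membrane, and cargo receptors hold on to what is to be degraded. In keratinocytes autophagy is known for its part in terminal differentiation and in clearing oxidised proteins after UV. Only mRNA was measured here, and neither autophagic flux nor protein levels.

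Levels are FPKM, that is, reads per kilobase of merged exons scaled to the assigned reads of the library, and the libraries held between 66272443 and 88484020 reads. The limma test on log2(FPKM + 1) took genes with a mean of 0.5 FPKM or more, and a gene was called at a Benjamini-Hochberg adjusted p under 0.05 over all 14921 genes tested. Fold changes are on that scale and understate changes of low genes. Of 8 keratinocyte markers fixed for the check, all were detected, but the basal keratin KRT14 reached no more than 1.86 FPKM after UVB and 1.14 FPKM in controls. KRT5, its partner, ranged over 99.1 to 164 FPKM after UVB and 237 to 373 FPKM in controls. Of the 8 markers 2 were called higher and 4 lower, and they summed to 274 to 340 FPKM after UVB, against 456 to 594 FPKM in controls. Of the markers of other cells, TYR of melanocytes, CD3E, CD207 and CD1A of leukocytes and KDR of endothelium were at 0 in all 6 libraries, and no fibroblast marker was. Detected at a testable level were PMEL of melanocytes, CD14, CDH5 and the fibroblast collagen COL1A1. COL1A1 was called higher, at 1.75 ± 0.132 FPKM after UVB and 0.778 ± 0.137 FPKM in controls (SD, n = 3 each, adjusted p = 0.00398). The others did not pass, with adjusted p = 0.597 for PMEL, 0.0993 for CD14 and 0.0559 for CDH5. The summed melanocyte list was 0.897 to 1.07 FPKM after UVB and 0.757 to 1.18 FPKM in controls, and the fibroblast list 1.77 to 1.95 FPKM after UVB and 0.757 to 1.02 FPKM in controls. The leukocyte list, nearly all of it CD14, summed to 3.91 to 5.69 FPKM after UVB and 5.98 to 6.85 FPKM in controls, and the endothelial list, nearly all of it CDH5, to 5.91 to 8.96 FPKM after UVB and 4.26 to 5.21 FPKM in controls. The part of these shifts in the changes of the autophagy genes was not tested. In such bulk samples fewer cells of a type and less RNA per cell cannot be told apart.

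Of the 38 genes 35 were tested, and 10 were called higher and 3 lower after UVB. The higher genes were OPTN, TFEB, ATG2A, NBR1, ATG16L1, ATG4B, ATG14, SQSTM1, WIPI2 and ATG9A, and the lower genes were ATG10, UVRAG and ATG7. The other 22 tested genes did not pass, and ULK2, WIPI1 and MAP1LC3A lay under the filter of 0.5 FPKM. The higher calls were 28.6% of those tested, against 17.0% of all genes and 20.1% of the 11594 protein-coding genes tested. Lower calls made up 8.57%, against 11.0% of all genes and 11.6% of protein-coding genes, a share near the background. In 15 of the 35 (42.9%) all UVB libraries lay above all control libraries, as in 27.6% of all genes tested, and in 5 (14.3%) all lay below, as in 18.2% of all genes. The median log2 fold change of the 35 was 0.11, beside 0.04 over all genes tested.

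Changes were small: apart from ATG10, whose mean fell by 70.0%, the called genes differed in mean FPKM by between 15.8% (ATG9A) and 58.8% (OPTN). At an unadjusted p under 0.05 there were 19 genes of the 35 (54.3%), beside 40.5% of all genes tested. The authors' deposited table calls 5 of the 38 higher and 3 lower at its own adjusted p under 0.05. Of the 32902 genes with such a p in the authors' deposited table, many of them below 0.5 FPKM, 4.67% are called higher and 3.93% lower. With edgeR on reads recovered from the FPKM, 7 of the 35 were higher and 3 lower, beside 13.3% of all genes in either direction. Over all genes the split of calls depended on the scaling, with 2530 higher and 1637 lower as deposited and 1932 higher and 1954 lower after median-ratio scaling. Under that scaling 7 of the autophagy genes were higher and 3 lower. Without UVB library 1 or control library 2 the number of higher autophagy genes was 6.

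**Figure D1:**
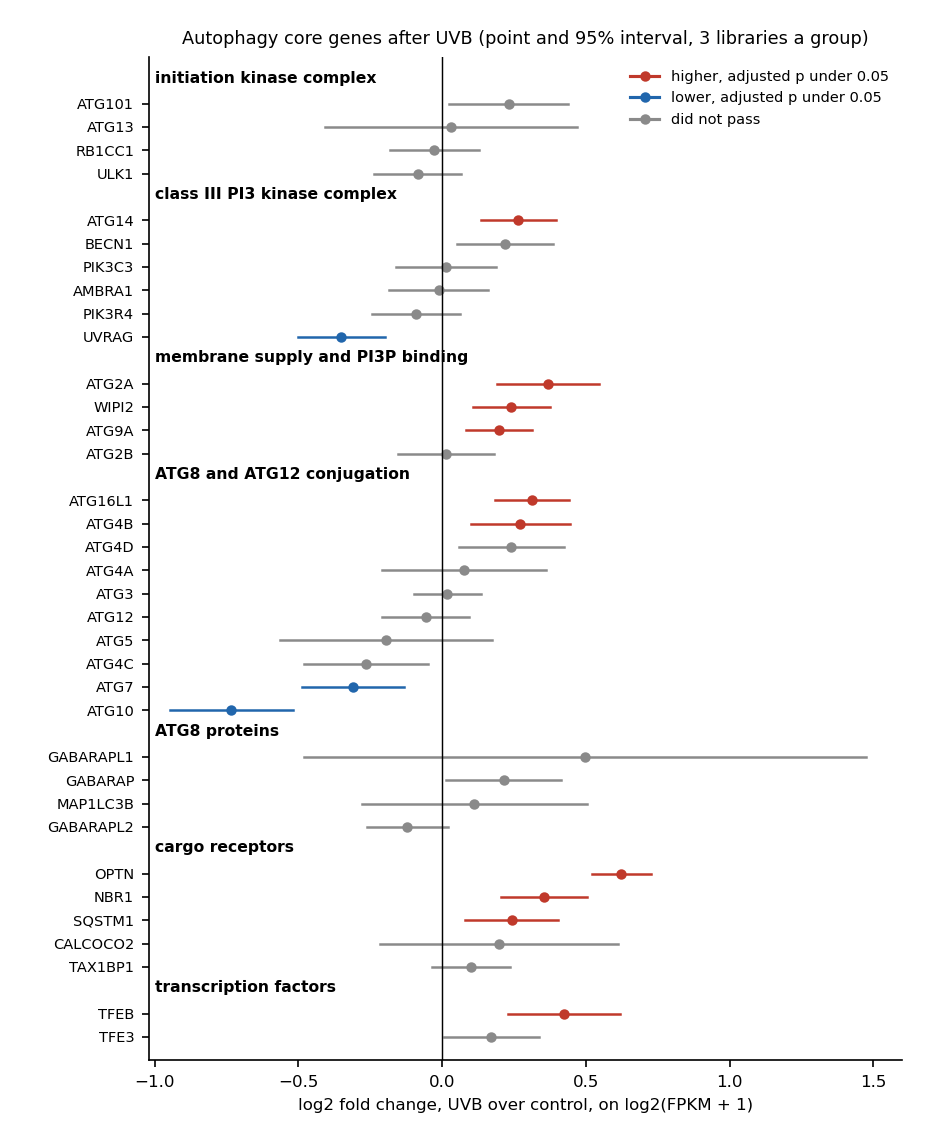
Log2 fold change, UVB over control, of the 35 genes tested, grouped by role from initiation at the top to transcription factors at the bottom. Points are limma estimates and bars their 95% intervals over 3 libraries a group. The 10 higher genes lie in the membrane, conjugation, cargo, lipid kinase and transcription factor groups. None passed in the initiation complex or the ATG8 group, each with 4 genes tested. Of all genes tested, 17.0% were higher and 11.0% lower.

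None of the 4 tested genes of the initiation complex passed. Of all genes tested, 17.0% were higher and 11.0% lower, and so few genes were not tested as a set. RB1CC1, the large scaffold of the complex, had the highest level, with 20.04, 21.3 and 18.9 FPKM after UVB, against 19.9, 19.8 and 21.8 FPKM in controls. The groups overlap, and its log2 fold change was -0.03 (adjusted p = 0.787). ULK1, the kinase itself, averaged 7.40 ± 0.0994 FPKM after UVB and 7.93 ± 0.578 FPKM in controls (SD, n = 3 each), a log2 fold change of -0.08 (adjusted p = 0.362). ATG13, the adaptor between kinase and scaffold, varied more among the UVB libraries (19.6, 12.3 and 20.2 FPKM) than among controls (17.7, 16.5 and 15.5 FPKM), with a log2 fold change of 0.03 (adjusted p = 0.918). ATG101, which stabilises ATG13, had 17.8, 15.3 and 17.9 FPKM after UVB, against 14.8, 12.96 and 15.2 FPKM in controls. All its UVB libraries lay above all controls, yet the log2 fold change of 0.23 missed the threshold (adjusted p = 0.0916). ULK2, the second kinase, had 0.303, 0.272 and 0.332 FPKM after UVB, against 0.183, 0.204 and 0.390 FPKM in controls, and was not tested.

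The lipid kinase complex exists in an early form with ATG14 and a later, endosomal form with UVRAG, and these alternative subunits moved in opposite directions. ATG14, which brings the kinase to the site of autophagosome formation, had 6.75, 7.06 and 7.40 FPKM after UVB, against 5.78, 5.78 and 5.57 FPKM in controls. Its lowest UVB library exceeded its highest control, and it rose by 0.27 on the log2 scale (95% interval 0.13 to 0.40, adjusted p = 0.0145). Without UVB library 3 the adjusted p was 0.0544. UVRAG, first described for its link to UV resistance, had 3.16, 2.86 and 3.16 FPKM after UVB, against 4.24, 4.27 and 4.0 FPKM in controls. It fell by 0.35 on the log2 scale (95% interval of the change -0.50 to -0.20, adjusted p = 0.00889), with no overlap of the groups. The call of UVRAG held in each fit with 1 library left out, at adjusted p up to 0.0332.

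The shared subunits of both forms did not pass. PIK3R4, the pseudokinase subunit, was the highest of the group, with 12.1, 12.3 and 11.0 FPKM after UVB, against 12.1, 12.3 and 13.4 FPKM in controls (log2 fold change -0.09, adjusted p = 0.342). PIK3C3, the catalytic subunit, was the lowest, with 2.49, 2.45 and 2.47 FPKM after UVB, against 2.18, 2.52 and 2.63 FPKM in controls (log2 fold change 0.01, adjusted p = 0.912). BECN1, the scaffold that both ATG14 and UVRAG bind, averaged 8.58 ± 0.660 FPKM after UVB and 7.23 ± 0.337 FPKM in controls (SD, n = 3 each). Its UVB libraries all lay above the controls, with a log2 fold change of 0.22 at adjusted p = 0.060, and without UVB library 3 it passed at 0.0472. AMBRA1, a regulator of BECN1, averaged 9.14 ± 0.297 FPKM after UVB and 9.25 ± 0.851 FPKM in controls (log2 fold change -0.01, adjusted p = 0.921).

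The promoter of ATG14 is shown because it was the only one among the higher genes to hold CACGTG. These letters are the palindromic core of the sites that TFEB and TFE3 bind. They stood in 1 of 10 promoters of higher genes, beside 7.43% of all promoters, and binding was not measured. ATG3, an enzyme of the later coupling step that did not pass, held the same letters at nearly the same distance from its RefSeq start. Each sequence is the 100 bases before the annotated start (RefSeq, GRCh38.p14), read 5′ to 3′ on the gene's own strand, with the match in capitals. The stretch for ATG14 is chr14:55411831-55411930 and that for ATG3 is chr3:112561963-112562062, both on the minus strand.
ATG14: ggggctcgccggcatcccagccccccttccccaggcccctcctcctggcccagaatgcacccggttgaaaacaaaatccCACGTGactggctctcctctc
ATG3: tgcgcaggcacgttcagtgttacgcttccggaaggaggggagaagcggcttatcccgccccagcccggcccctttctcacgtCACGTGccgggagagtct
The match of ATG14 lies at bases -21 to -16 and that of ATG3 at -18 to -13. ATG3 had a further match after the start, at bases 5 to 10.

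Of the 4 genes for membrane supply that were tested, ATG2A, WIPI2 and ATG9A were called higher and none lower. Over all genes tested 17.0% were higher and 11.0% lower. With edgeR 2 of the 4 were higher, beside 13.3% of all genes in either direction. So small a group was not tested as a set. ATG2A, which carries lipids into the growing membrane, had 12.3, 12.96 and 13.04 FPKM after UVB, against 9.49, 10.7 and 8.86 FPKM in controls. Every UVB library exceeded every control, and the log2 fold change was 0.37 (95% interval 0.19 to 0.54, adjusted p = 0.013). It was called under each alternative tried. ATG2B, its paralog, averaged 2.82 ± 0.184 FPKM after UVB and 2.78 ± 0.159 FPKM in controls (SD, n = 3 each), with a log2 fold change of 0.01 (adjusted p = 0.906). The log2 ratio of ATG2A to ATG2B was 2.23, 2.15 and 2.16 after UVB and 1.86, 1.86 and 1.67 in controls, with no overlap. That difference of 0.38 reached the smallest p that 3 libraries against 3 allow (exact two-sided permutation test, p = 0.1, 0.225 adjusted over 9 pairs).

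WIPI2, which reads PI3P and recruits ATG16L1, had 10.1, 9.90 and 9.10 FPKM after UVB, against 8.10, 7.87 and 8.15 FPKM in controls. The groups did not overlap, and it rose by 0.24 on the log2 scale (95% interval 0.11 to 0.37, adjusted p = 0.0208). Without UVB library 1 or 2, or control library 1 or 2, its adjusted p was between 0.0552 and 0.0692. ATG9A, a lipid scramblase on the vesicles that seed the membrane, had 15.7, 15.1 and 15.9 FPKM after UVB, against 13.8, 13.6 and 12.97 FPKM in controls. It rose by 0.20 (95% interval 0.08 to 0.31, adjusted p = 0.0240), also without overlap. Its adjusted p was 0.0529 to 0.0825 without UVB library 1 or 3 or control library 2 or 3, and 0.0566 with edgeR. Of its exon bases 38.8% also belong to another annotated gene, so its reads cannot be fully told apart. WIPI1, the other PI3P reader of the group, had 0.470, 0.389 and 0.448 FPKM after UVB, against 0.347, 0.457 and 0.387 FPKM in controls, and was not tested.

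**Figure D2:**
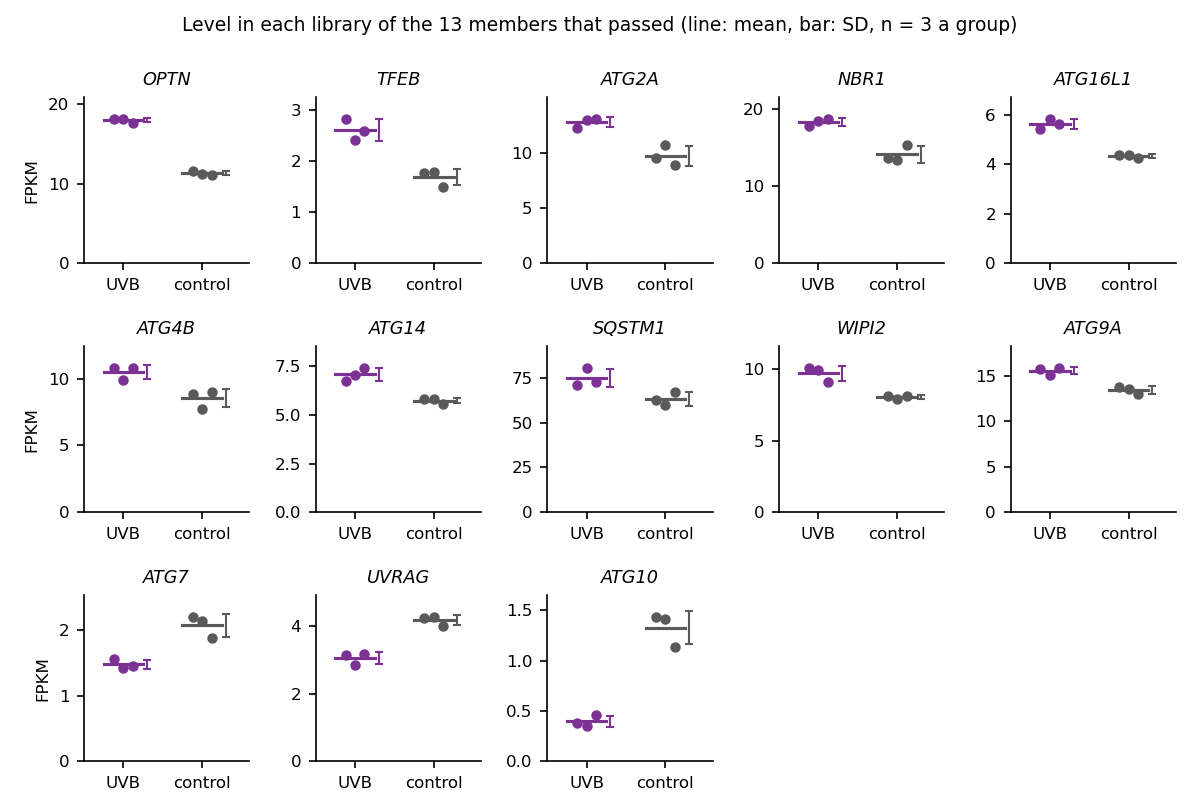
FPKM in each of the 6 libraries for the 13 genes called, with UVB on the left and control on the right of each panel. Lines are means and bars SD (n = 3 a group), and each axis starts at 0. The UVB and control points of each of the 13 genes do not overlap. The genes were called on these same values, so this adds no support to the calls. Of all genes tested, 27.6% had all UVB libraries above all controls and 18.2% all below.

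Of 10 coupling enzymes tested, ATG16L1 and ATG4B were called higher, ATG10 and ATG7 lower, and 6 did not pass. Higher and lower calls were each 20% of the 10, beside 17.0% and 11.0% of all genes tested. The group was not tested as a set. ATG16L1, which places the coupling complex on the membrane, had 5.43, 5.83 and 5.63 FPKM after UVB, against 4.38, 4.39 and 4.25 FPKM in controls. This was a rise of 0.31 on the log2 scale (95% interval 0.18 to 0.44, adjusted p = 0.00765), with no overlap, and it was called under each alternative. ATG4B, a protease that trims ATG8 proteins for coupling, had 10.8, 9.88 and 10.8 FPKM after UVB, against 8.85, 7.74 and 8.99 FPKM in controls. It rose by 0.27 (95% interval 0.10 to 0.44, adjusted p = 0.0337), and its UVB libraries all lay above its controls. The call was lost without UVB library 1 or 3 or control library 1 or 2, at adjusted p 0.0601 to 0.101, and with edgeR at 0.0597.

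ATG10 fell the most of all the autophagy genes. This enzyme passes ATG12 to ATG5, and its mRNA was at 0.382, 0.353 and 0.460 FPKM after UVB, against 1.43, 1.41 and 1.14 FPKM in controls. Behind these values stood 151, 170 and 199 recovered reads after UVB, against 541, 509 and 504 in controls. Of the exon bases of ATG10 6.86% are shared with genes on the opposite strand, the largest partner being RPS23. No strand setting is stated, so reads there cannot be told apart. The groups were far apart, and the log2 fold change was -0.73 (95% interval -0.95 to -0.52, adjusted p = 0.00218). On the reads themselves edgeR gave -1.79 (adjusted p = 5.42e-04), because adding 1 FPKM compresses the change of so low a gene. Counted from the lowest log2 fold change on the compressed log2(FPKM + 1) scale, ATG10 stood at place 352 of the 14921 genes tested. That place therefore depends on the added 1 FPKM.

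ATG7, which activates both ATG12 and the ATG8 proteins, had 1.56, 1.43 and 1.46 FPKM after UVB, against 2.20, 2.15 and 1.88 FPKM in controls. It fell by 0.31 on the log2 scale (95% interval of the change -0.49 to -0.13, adjusted p = 0.0243), without overlap. The adjusted p was 0.0539 to 0.0749 when any library other than control library 3 was left out, while edgeR called it at 0.00712. Of the exon bases of ATG7 18.1% are shared with genes on the opposite strand, the largest partner being VGLL4. ATG5, the partner of ATG12, had 5.62, 5.83 and 3.63 FPKM after UVB, against 5.58, 5.76 and 6.08 FPKM in controls, so UVB library 3 alone lay below the rest. Its log2 fold change was -0.20 (adjusted p = 0.387).

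ATG12 itself averaged 2.95 ± 0.176 FPKM after UVB and 3.10 ± 0.0845 FPKM in controls (log2 fold change -0.06, adjusted p = 0.543). ATG3, the enzyme that couples ATG8 proteins to lipid and whose promoter is printed above, averaged 8.59 ± 0.198 FPKM after UVB and 8.48 ± 0.228 FPKM in controls (log2 fold change 0.02, adjusted p = 0.814). The remaining proteases trim ATG8 proteins or free them from the membrane. ATG4D was the highest of the group, with 18.8, 17.3 and 19.2 FPKM after UVB, against 13.9, 16.4 and 16.1 FPKM in controls. ATG4D had all UVB libraries above all controls and a log2 fold change of 0.24 (adjusted p = 0.0586). ATG4C lay below in all UVB libraries, averaging 3.07 ± 0.135 FPKM after UVB and 3.899 ± 0.502 FPKM in controls (SD, n = 3 each), with a log2 fold change of -0.26 (adjusted p = 0.0732). Without control library 2 ATG4C passed, at 0.0236. ATG4A averaged 3.49 ± 0.177 FPKM after UVB and 3.30 ± 0.693 FPKM in controls (log2 fold change 0.08, adjusted p = 0.676).

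The log2 ratio of ATG4C to ATG4D was -2.59 ± 0.0931 after UVB and -1.99 ± 0.272 in controls, a difference of -0.59 with no overlap of the libraries (exact two-sided permutation test, p = 0.1, 0.225 adjusted over the 9 pairs). For ATG4A to ATG4B it was -1.59 ± 0.107 after UVB and -1.39 ± 0.264 in controls, which overlapped (exact permutation test, p = 0.3). The ratio of ULK1 to ULK2 overlapped as well, at 4.62 ± 0.154 after UVB and 5.02 ± 0.696 in controls (exact permutation test, p = 0.4), and so did WIPI1 to WIPI2, at -4.48 ± 0.171 after UVB and -4.35 ± 0.222 in controls (exact permutation test, p = 0.5).

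None of the 4 ATG8 genes tested passed, where 17.0% of all genes tested were higher and 11.0% lower. So few genes were not tested as a set. GABARAP, the most abundant of them, had 39.0, 38.5 and 46.4 FPKM after UVB, against 36.3, 33.2 and 36.6 FPKM in controls. Its UVB libraries lay above all controls, with a log2 fold change of 0.21 (adjusted p = 0.104), and 55.7% of its exon bases are shared with other annotated genes. GABARAPL2 averaged 14.8 ± 0.582 FPKM after UVB and 16.2 ± 0.962 FPKM in controls (SD, n = 3 each), below in all UVB libraries, with a log2 fold change of -0.12 (adjusted p = 0.177). MAP1LC3B, which encodes the LC3 protein commonly used as an autophagosome marker, had 10.3, 7.13 and 11.4 FPKM after UVB, against 9.07, 7.82 and 9.20 FPKM in controls (log2 fold change 0.11, adjusted p = 0.647). GABARAPL1 was carried by UVB library 3, with 5.86, 4.56 and 14.0 FPKM after UVB, against 7.40, 4.21 and 3.66 FPKM in controls. Its log2 fold change of 0.50 therefore had a 95% interval of -0.48 to 1.47 (adjusted p = 0.408), and was 0.07 without that library. MAP1LC3A was nearly silent, at 0.0704, 0.0898 and 0.1002 FPKM after UVB, against 0.0654, 0.0171 and 0.0698 FPKM in controls, which is 9 to 14 recovered reads after UVB and 2 to 10 in controls.

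In the summed FPKM of the 5 genes GABARAP held 56.0% ± 2.42 after UVB and 54.1% ± 1.02 in controls (SD, n = 3 each; exact permutation test, p = 0.3). GABARAPL2 followed with 20.4% ± 3.54 after UVB and 24.9% ± 1.62 in controls (exact permutation test, p = 0.2), and MAP1LC3B with 12.9% ± 1.93 after UVB and 13.3% ± 0.457 in controls (exact permutation test, p = 0.9). GABARAPL1 made up 10.5% ± 5.01 after UVB and 7.73% ± 2.75 in controls (exact permutation test, p = 0.5), and MAP1LC3A 0.118% ± 0.0182 after UVB and 0.0760% ± 0.0417 in controls (exact permutation test, p = 0.2). Adjusted over the 5 shares the lowest p was 0.5. The neighbours MAP1LC3B and GABARAPL1 overlap in level, while the steps from GABARAP to GABARAPL2 and from GABARAPL2 to MAP1LC3B hold in every library. The sum was 74.01 ± 10.8 FPKM after UVB and 65.4 ± 4.06 FPKM in controls (exact permutation test, p = 0.3).

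Relative to GABARAP, GABARAPL2 had a log2 ratio of -1.47 ± 0.205 after UVB and -1.12 ± 0.0683 in controls, a difference of -0.35 with no overlap (exact permutation test, p = 0.1, 0.225 adjusted over the 9 pairs). The ratio of GABARAPL1 to GABARAP was -2.51 ± 0.701 after UVB and -2.87 ± 0.524 in controls (exact permutation test, p = 0.6), and that of MAP1LC3A to MAP1LC3B was -6.78 ± 0.443 after UVB and -7.66 ± 1.01 in controls (exact permutation test, p = 0.3). MAP1LC3B2 is a near-identical copy of MAP1LC3B, and reads may have been split between them. It had 1.91, 2.90 and 2.82 FPKM after UVB, against 1.57, 1.70 and 1.53 FPKM in controls, and MAP1LC3C was listed at 0 in every library.

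**Figure D3:**
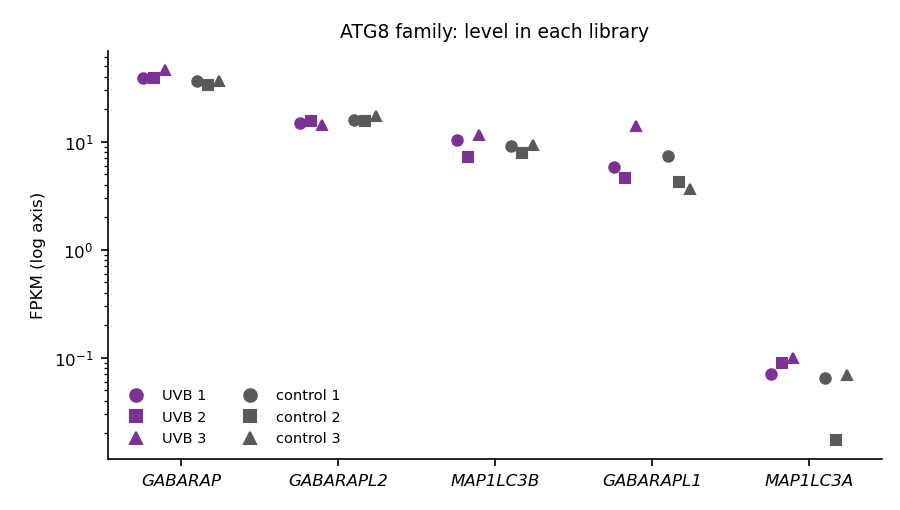
FPKM of the 5 ATG8 genes in each library on a log axis, ordered by level, with UVB libraries in purple left of control libraries in grey and 1 symbol shape for each replicate number. GABARAPL1 reaches 14.0 FPKM in UVB library 3, while the other 5 libraries lie between 3.66 and 7.40 FPKM.

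Of the 5 cargo receptors OPTN, NBR1 and SQSTM1 were called higher and none was called lower. Over all genes tested 17.0% were higher and 11.0% lower. With edgeR 2 of the 5 were higher, beside 13.3% of all genes in either direction. So small a group was not tested as a set. Together the 5 genes had a median log2 fold change of 0.24. OPTN, a receptor for ubiquitin-coated mitochondria and bacteria, had 18.1, 18.1 and 17.7 FPKM after UVB, against 11.6, 11.2 and 11.1 FPKM in controls. Replicates were tight, and it rose by 0.62 on the log2 scale (95% interval 0.52 to 0.73, adjusted p = 3.15e-04), the largest among the 10 higher genes. Counted from the highest log2 fold change it stood at place 470 of the 14921 genes tested. With 1 library left out its log2 fold change stayed between 0.61 and 0.64.

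The OPTN promoter is shown for the letters directly before its start. The 100 bases are chr10:13099982-13100081 on the plus strand (RefSeq, GRCh38.p14), and the gene runs over chr10:13099449-13138308 in the annotation of the table. Capitals mark overlapping matches to GGGANNTTCC, a pattern found in many sites of NF-κB proteins, at bases -12 to -3 and -11 to -2.
OPTN: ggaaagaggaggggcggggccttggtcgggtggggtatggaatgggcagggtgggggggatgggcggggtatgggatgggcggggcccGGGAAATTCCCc
This pattern was added after the sequence had been read, and 1.63% of all 27305 promoters in the table hold it in the same 300-base window.

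NBR1, which clusters ubiquitin-bearing cargo, had 17.7, 18.4 and 18.7 FPKM after UVB, against 13.7, 13.3 and 15.3 FPKM in controls. It rose by 0.36 (95% interval 0.21 to 0.50, adjusted p = 0.00820) with no overlap, and was called under each alternative. SQSTM1, the receptor for protein aggregates and the most abundant mRNA among the autophagy genes, had 71.0, 80.4 and 72.8 FPKM after UVB, against 62.3, 59.6 and 67.2 FPKM in controls. Although its groups did not overlap, the rise of 0.24 (95% interval 0.08 to 0.40) only just passed, at adjusted p = 0.0391. Leaving out any library but control library 3 gave 0.0563 to 0.101, and edgeR gave 0.0842. An antisense neighbour, MRNIP, covers 22.0% of its exon bases, and no strand setting is stated, so reads there cannot be told apart. CALCOCO2, a receptor for bacteria and mitochondria, was the lowest of the group and varied in both groups, with 6.70, 6.87 and 8.63 FPKM after UVB, against 4.73, 6.71 and 7.76 FPKM in controls (log2 fold change 0.20, adjusted p = 0.436). TAX1BP1, its paralog, averaged 13.8 ± 0.280 FPKM after UVB and 12.8 ± 0.772 FPKM in controls (SD, n = 3 each), above in all UVB libraries with a log2 fold change of 0.10 (adjusted p = 0.230).

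TFEB and TFE3 switch on genes of autophagy and lysosomes when mTORC1, the nutrient-sensing kinase, no longer holds them in the cytoplasm. TFEB mRNA had 2.82, 2.41 and 2.58 FPKM after UVB, against 1.77, 1.79 and 1.49 FPKM in controls. It rose by 0.42 (95% interval 0.23 to 0.62, adjusted p = 0.0112) with no overlap, and was called under each alternative. TFE3, far more abundant, had 24.1, 24.99 and 23.4 FPKM after UVB, against 23.6, 20.5 and 20.2 FPKM in controls. Its lowest UVB library lay within the control range, and the log2 fold change of 0.17 did not pass (adjusted p = 0.114), though it did without control library 1 (0.0307). The log2 ratio of TFEB to TFE3 was -3.22 ± 0.142 after UVB and -3.67 ± 0.131 in controls, so TFE3 exceeded TFEB 9.32-fold after UVB and 12.7-fold in controls. This difference of 0.45 had no overlap (exact two-sided permutation test, p = 0.1, 0.225 adjusted over the 9 pairs). Where TFEB protein was located was not measured.

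Promoters of 300 bases, from 250 before to 50 after the start, were matched for 34 of the 38 genes and searched on both strands. The promoters of RB1CC1, UVRAG, ATG4D and MAP1LC3A were not matched. CACGTG stood in 2 of the 34 (5.88%), ATG14 and ATG3, and in 7.43% of all promoters. TGAGTCA or TGACTCA, read by AP-1 factors, was found in TFE3 and in 4.92% of all promoters. TGACNNNGC, the antioxidant response element of NFE2L2, was found in ATG101, MAP1LC3B and CALCOCO2, and in 13.6% of all. TGATGNAA, an element of ATF4 and its partners, and the interferon-stimulated response core of GAAA, any 2 bases and GAAA were in none of the 34, against 3.67% and 3.65% of all promoters. Apart from ATG14 and OPTN, no promoter of a called gene held any of these patterns, which says only that the letters are not in this window.

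The 3 genes called lower shared a feature that the choice of genes did not use: they are long. UVRAG spans 328 kb of chromosome 11 (chr11:75815167-76143195), ATG10 304.8 kb of chromosome 5 (chr5:81972025-82276857) and ATG7 285 kb of chromosome 3 (chr3:11272309-11557665), with GENCODE release 29 coordinates on GRCh38. Only ATG5, at 280 kb, also exceeds 200 kb among the tested autophagy genes. Its log2 fold change was -0.20 and did not pass. Of 11 genes under 25 kb 2 were called higher, of 9 genes from 25 to 50 kb 6, and of 7 genes from 50 to 100 kb 2. None was called lower in these classes. Yet GABARAPL2 (11.5 kb) and ATG4C (81.4 kb) lay below controls in all UVB libraries. DESeq2 on recovered reads called ATG4C lower (adjusted p = 0.0169). The 4 from 100 to 200 kb (AMBRA1, PIK3C3, RB1CC1 and TAX1BP1) were not called. Across the 35 genes Pearson's r of log2 span with log2 fold change was -0.56 and Spearman's rho -0.47. Without ATG10, ATG7 and UVRAG the r was -0.35, over 32 genes. These points come from the same 6 libraries and are a description.

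The same held more weakly for protein-coding genes at large, with a Pearson's r of -0.17 over 11594 genes, and r was -0.002 over all genes tested. Among the 663 protein-coding genes over 200 kb, 43.1% were called lower and 7.84% higher, with a median log2 fold change of -0.20. Under 25 kb 9.27% of 5090 genes were lower and 23.3% higher. From 25 to 50 kb 8.56% of 2487 were lower and 20.2% higher. From 50 to 100 kb it was 9.64% of 2034 lower and 19.1% higher, and from 100 to 200 kb 13.6% of 1320 and 15.3%. The fall of UVRAG, ATG10 and ATG7 thus lay beside lower calls in many genes of their length, and the part of gene length in it was not tested.

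**Figure D4:**
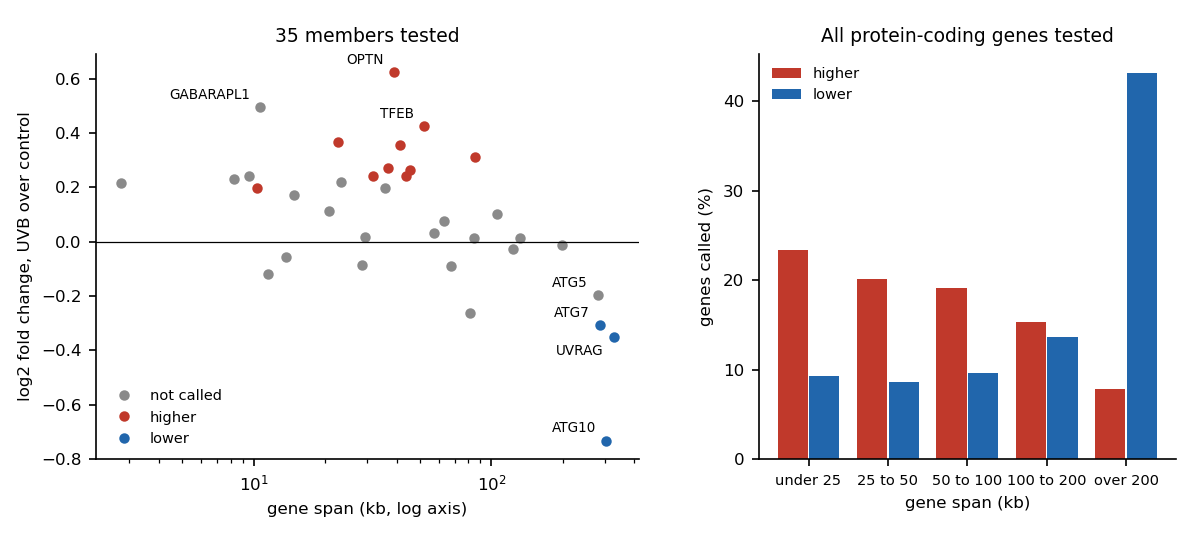
Left, log2 fold change (UVB over control) of the 35 autophagy genes against their genomic span in kb on a log axis, coloured by call. Right, the percentage of all tested protein-coding genes called higher or lower in each class of span. UVRAG, ATG10 and ATG7, the lower genes, all exceed 200 kb, a class in which 43.1% of protein-coding genes were lower.

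Genes acting next to the core were read from 6 lists of 122 genes, of which 116 were tested, 38 called higher (32.8%) and 10 lower (8.62%), with a median log2 fold change of 0.13. Over all genes tested 17.0% were higher and 11.0% lower, and over the protein-coding genes tested 20.1% and 11.6%. The lower share was thus near the background. These shares are the background of each list below, and no list was tested as a group. Of 19 tested genes in other parts of the autophagosome machinery 9 were higher and 1 lower, with a median of 0.18. RUBCN, an inhibitor of the UVRAG form of the lipid kinase, rose by 0.65 (adjusted p = 0.0274), but its adjusted p was 0.0545 to 0.0826 without UVB library 1 or 2 or control library 3. ZFYVE1, a PI3P-binding protein of the sites where autophagosomes form, rose by 0.49 (adjusted p = 0.00450). MAP1LC3B2 rose by 0.43 (adjusted p = 0.0448), a call that edgeR did not make (0.0545) and that was lost when any library other than UVB library 1 was left out, at 0.0832 to 0.129. Leaving out UVB library 2 or 3 left 5 higher genes in this list.

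The lysosomal proton pump, which acidifies the lumen, had 8 of 16 subunits higher and none lower, with a median log2 fold change of 0.24. With edgeR 6 were higher and none lower, beside 13.3% of all genes in either direction. ATP6V1F had 114, 101 and 104 FPKM after UVB, against 69.4, 74.2 and 63.9 FPKM in controls, and rose by 0.61 (adjusted p = 0.00184). ATP6V0A1 rose by 0.58 (adjusted p = 0.00550) and ATP6AP1 by 0.51 (adjusted p = 0.00114). Lysosomal membrane proteins and hydrolases were split, with 7 of 27 higher, 6 lower and a median of 0.06. MCOLN1, the calcium channel of the lysosomal membrane, rose by 0.47 (adjusted p = 0.00386). LIPA, the lysosomal acid lipase, fell by 0.53 (adjusted p = 0.0211), but its adjusted p was 0.0598 to 0.0632 when any 1 of the UVB libraries was left out. Leaving out UVB library 2 or control library 2 left 3 lower genes in this list.

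Regulators of mTORC1 and AMPK, the kinases that restrain and start autophagy, mostly did not pass, with 5 of 30 higher, 3 lower and a median log2 fold change of 0.04. SESN2, a leucine sensor that restrains mTORC1, had 12.7, 11.8 and 12.3 FPKM after UVB, against 7.34, 6.72 and 6.47 FPKM in controls, and rose by 0.76 (adjusted p = 5.33e-04). Its paralog SESN3 had 2.73, 3.01 and 3.01 FPKM after UVB, against 4.63, 4.61 and 4.68 FPKM in controls, and fell by 0.53 (adjusted p = 0.00162). CASTOR1, an arginine sensor, fell by 0.59 (adjusted p = 0.00629), and 46.0% of its exon bases are shared with other genes. Without library 1 or 3 of either group, 3 genes of this list were higher.

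Receptors for mitophagy and ER-phagy had 6 of 16 higher and none lower, with a median of 0.13. With edgeR 6 were higher and RETREG1 lower (adjusted p = 0.0318), beside 13.3% of all genes in either direction. CCPG1, an ER-phagy receptor, rose by 0.62 (adjusted p = 0.00470), with 39.8% of its exon bases shared. BNIP3, a mitophagy receptor, rose by 0.53 (adjusted p = 0.00380) and TEX264, another ER-phagy receptor, by 0.35 (adjusted p = 0.00986). Of 8 other transcription regulators of autophagy 3 were higher and none lower, with a median of 0.16. MITF, the relative of TFEB and TFE3, had 7.19, 6.95 and 6.48 FPKM after UVB, against 3.33, 3.56 and 4.03 FPKM in controls, and rose by 0.77 (adjusted p = 0.00107). DDIT3, a stress-induced partner of ATF4, rose by 1.504 (adjusted p = 0.00105), with 39.6% of its exon bases shared, and FOXO3 by 0.33 (adjusted p = 0.00405).

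**Figure D5:**
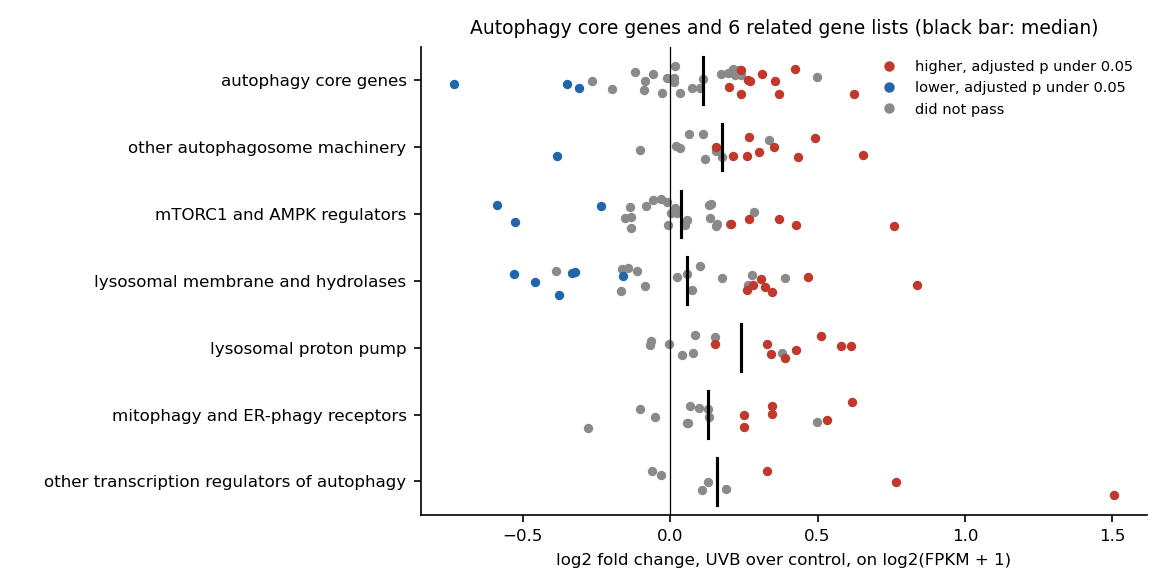
Log2 fold change, UVB over control, of each tested gene of the autophagy core and of the 6 related lists, with the median of each list as a black bar. Vertical scatter within a row carries no value. The proton pump list has the highest median, 0.24, and the autophagy core genes have a median of 0.11.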

How the data were processed

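How reads were counted, with which strand setting and annotation release, is not given in the sources used here. HISAT2 2.0.5, StringTie and DESeq were used on build GRCh38 (hg38), per the submitters' processing notes. The authors deposited FPKM values of genes and repeat copies, with log2 fold changes and adjusted p-values of their own comparison, per the file headers. They also deposited read counts of 74 repeat copies. With these counts, 100% of non-zero FPKM values gave whole numbers within 0.01, taken as reads although that each unit is 1 read is not known. All 58735 gene identifiers are in GENCODE release 29, which gave coordinates and exon overlaps.

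Genes were matched by symbol, and groups were taken from sample titles. limma 3.58.1 (eBayes with trend, R 4.3.3) was run on log2(FPKM + 1). Alternatives were edgeR 4.0.16 and DESeq2 1.42.0 on recovered reads, leaving out each library, a replicate block, and other scalings, filters and pseudocounts. Ratios and shares used exact permutation tests (scipy 1.17.1). All 38 genes are named, with library values for called genes and for the highest and lowest of each role. Up to 3 called genes with the largest change are named in each related list, except where a result is not reported here. Other genes and patterns were chosen after their values were seen. The 38 genes and the lists were chosen with earlier results of these data known.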

Additional observations from a re-analysis of the deposited data

How the results depend on the processing

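Of the 13 calls, 6 (ATG16L1, ATG2A, NBR1, OPTN, TFEB and UVRAG) were made under all 14 alternatives, and ATG10 wherever it was tested, its mean being under a filter of 1 FPKM. No called gene changed sign, whereas 8 genes that did not pass did so under some setting, among them ATG13, RB1CC1, PIK3C3 and ATG2B. With 1 library left out, 6 to 9 of the autophagy genes were called higher and 2 to 3 lower. The count was 6 without UVB library 1 or control library 2. Over all genes 1639 to 2074 were then higher, with 1639 without UVB library 3, and 6 to 8 related genes were lower, with 6 without UVB library 2 or control library 2. These fits have fewer samples by construction. UVB and control libraries of the same number correlated by 0.022 to 0.048 in their deviations, and those of different numbers by -0.033 to 0.004. Each correlated best with its own number, but so weakly that whether the numbers pair the libraries cannot be told. With a replicate block 7 autophagy genes were higher and 2 lower, without ATG14, ATG7, ATG9A, SQSTM1 and WIPI2 and with ATG101, and 1789 genes were higher and 1240 lower. The correlation with gene span stayed between -0.58 and -0.46. The low FPKM of ATG10 limits its fold change on the log2(FPKM + 1) scale. The 0.5 FPKM filter kept ULK2, WIPI1 and MAP1LC3A from being tested. Groups of 3 libraries limit what could be called.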
